A study of Mus musculus with 18 samples.

Results

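The difference in gene expression between hair cells (HCs) and the remaining epithelial cells of the newborn mouse inner ear was compared between the cochlea and the vestibular organs. For each gene the difference HC minus epithelial non-hair cell (ENHC) was taken in each organ, and the vestibular difference was subtracted from the cochlear difference on the log2 scale. This quantity is called the interaction here. A positive interaction means that a gene leaned more towards HCs in the cochlea, and a negative interaction means that it leaned more towards HCs in the vestibular organs. The members were 7718 of the 12002 genes tested. Their probe was detected (detection p under 0.01) on at least 2 of the 3 arrays in each of the 4 groups. These members are called measured genes. The remaining array of a group could lie near background. At the level of probes, 14108 of 24352 kept probes met the same rule.

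All samples came from postnatal day 1 mice of the Atoh1/nGFP (C57BL/6) line, in which a nuclear green fluorescent protein marks the cells that use the Atoh1 enhancer. Cells of the cochlea and of the vestibular tissues were sorted by this fluorescence and by CD326, an epithelial surface protein: HCs carried both, ENHCs carried CD326 alone, and non-epithelial cells (NECs) carried neither. The 4 groups compared were cochlear HCs, cochlear ENHCs, vestibular HCs and vestibular ENHCs, with 3 arrays each. In the fit the 2 NEC groups served only to estimate the spread. Their arrays also entered the normalization, the filter on detected probes and the choice of a probe for each gene. Every array held RNA pooled from the inner ears of several mice and amplified before hybridization, and the triplicates are described as biologically independent. The sort defines a population by marker and organ, so inner and outer HCs were pooled in the cochlea, the HCs of the utricle, saccule and cristae were pooled in the vestibular samples, and supporting cells and nonsensory epithelium were pooled in ENHCs. A lower share of a cell type in a pool and less RNA per cell cannot be told apart.

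HCs are the mechanosensory cells of the inner ear, with a bundle of actin-filled stereocilia at the apex and synapses at the base. In the cochlea they answer to sound below the tectorial membrane, and in the vestibular organs they answer to head position and motion below an otolithic membrane or a cupula. Vestibular HCs keep a true cilium, the kinocilium, through life, whereas in cochlear HCs of mice it is lost as the bundle matures after birth. The surrounding supporting and nonsensory cells secrete the overlying matrix, handle ions, and hold the signals that set cell fate. A question raised by this design is which of these programs set HCs apart from their epithelium to a different extent, or in the opposite direction, in the 2 organs.

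The labels were checked on marker genes. All 8 HC markers examined were detected in the HCs of both organs, and their summed signal ran from 11700 to 18100 in cochlear HCs and from 14800 to 17900 in vestibular HCs, against 1450 to 1770 and 1590 to 1980 in the ENHCs of the same organs. Of these 8, Atoh1, Pou4f3, Myo7a, Otof and Lhfpl5 were undetected on every ENHC array of both organs. Gfi1 and Cabp2 were undetected on every cochlear ENHC array and detected on 2 of 3 vestibular ENHC arrays. Their vestibular means were 5.29 and 5.34 in ENHCs, against 11.24 and 11.96 in HCs. Myo6 was detected on every ENHC array of both organs. The part of HC RNA in the ENHC samples was not tested. All 8 epithelial markers were detected in the 4 groups. On the 12 HC and ENHC arrays between 16668 and 19564 probes were detected, each array correlated best with an array of its own group, and the lowest correlation within a group was 0.932 over 24352 probes.

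The difference between HCs and ENHCs depended on the organ for a minority of genes. The interaction passed the test (limma, adjusted p under 0.05) for 557 of the 7718 measured genes, or 7.22%, against 10.8% of all 12002 genes tested. Of the 557, 201 leaned towards cochlear HCs and 356 towards vestibular HCs. Over all genes tested, these directions were called in 4.52% and 6.31%. The interaction exceeded 4-fold in 127 of the 557 genes, 46 towards cochlear HCs and 81 towards vestibular HCs. Its median over the measured genes was -0.0424, and its median standard error (SE) was 0.339 on the log2 scale. A further 743 genes that passed the test were not measured in all 4 groups and are not described here.

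The interaction is by arithmetic also the difference of the 2 organ contrasts, cochlear minus vestibular in HCs and in ENHCs, so the same fit showed which cell type carried it. Of the 356 genes towards vestibular HCs, the organ difference passed the test in HCs alone for 182, in ENHCs alone for 109, in both for 46 and in neither for 19. Among the 201 genes towards cochlear HCs these numbers were 84, 64, 32 and 21. As background, over all genes tested the organ difference was called in 14.3% of genes in HCs and in 11.0% in ENHCs, and the HC to ENHC difference in 36.5% in the cochlea and in 34.8% in the vestibular organs. The ENHC-enriched genes formed a large part of the calls towards vestibular HCs: 127 were higher in ENHCs in the cochlea alone, and 70 were higher in ENHCs in both organs but more so in the cochlea. HC-enriched genes were more evenly divided: 80 were higher in HCs in the cochlea alone and 77 in the vestibular organs alone. A further 49 genes, called towards cochlear HCs, were higher in ENHCs in the vestibular organs alone.

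**Figure D1:**
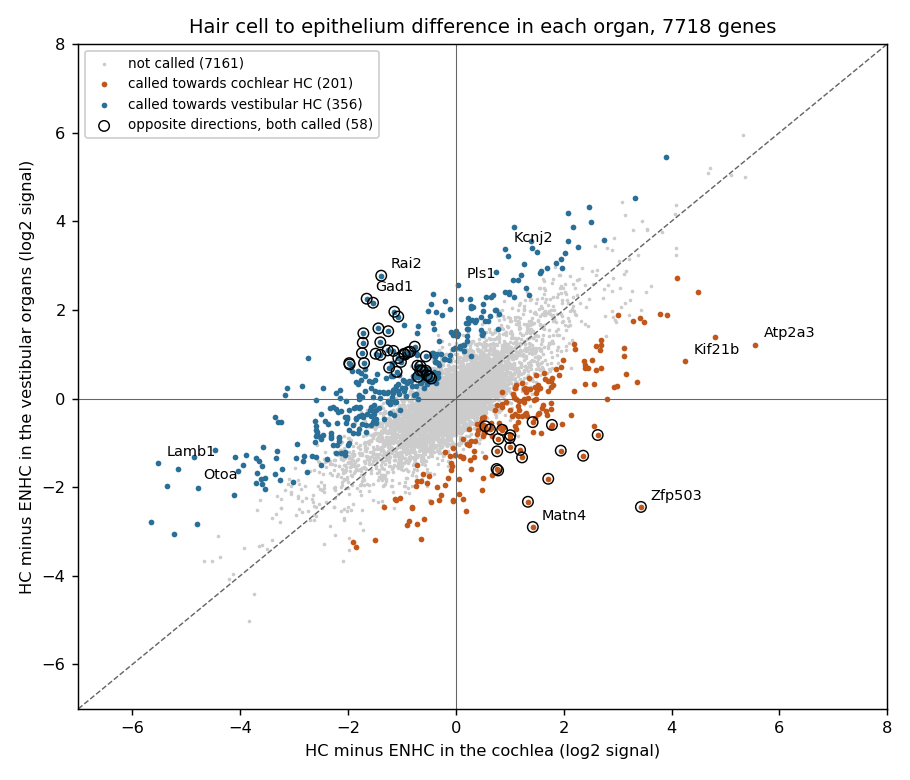
Each point is 1 of the 7718 measured genes, plotted by its HC minus ENHC difference in the cochlea (horizontal axis, log2 signal) and in the vestibular organs (vertical axis, log2 signal). The 201 genes called towards cochlear HCs lie below the dashed line of equal differences, the 356 called towards vestibular HCs lie above it, and the 58 circled genes sit in the quadrants of opposite sign.

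In 58 measured genes the HC to ENHC difference passed the test in both organs with opposite signs, together with the interaction. These are 0.751% of the measured genes, and the same rule held for 0.883% of all genes tested. HCs were the higher cell type in the cochlea and the lower one in the vestibular organs for 21 of them, and the reverse held for 37. The 2 cell types did not overlap on any array in either organ for 52 of the 58. The same arrays chose these genes, and the share over all genes tested was not computed. A second probe measured in all 4 groups was available for 22 of the 58 genes, and the 29 such probes all had an interaction of the same sign. The interaction passed the test in 17 of these probes, and 27 kept the sign of both organ differences. Keeping a sign is a weaker condition than the rule, which asks that both organ differences pass. The second measured probe of Svopl had a vestibular difference of 0.41 (adjusted p = 0.427), and that of Dlgap1 0.91 (adjusted p = 0.0703). Neither met the rule, whereas the second measured probes of Gad1 and Lpgat1 did. The same contrasts chose these genes, so the counts describe them and are no independent support. Without the second vestibular ENHC array, 22 genes in place of 37 met the rule with HCs higher in the vestibular organs.

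Zfp503, a zinc finger transcriptional regulator of the developing nervous system, showed the largest interaction of any measured gene. In the cochlea it read 9.59, 8.80 and 8.69 in HCs and 6.24, 4.94 and 5.61 in ENHCs, in log2 signal. In the vestibular organs it read 5.48, 4.51 and 5.38 in HCs and 8.15, 7.39 and 7.17 in ENHCs. Cochlear HCs and vestibular ENHCs were thus the high groups, with no overlap, and the probe was detected on only 2 of 3 arrays in each of the low groups. HCs exceeded ENHCs 10.8-fold in the cochlea and were 5.45-fold lower in the vestibular organs, an interaction of 5.88 (SE 0.60, 58.8-fold, adjusted p = 2.89e-06).

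Matn4, which encodes the extracellular matrix protein matrilin 4, followed the same diagonal at a much higher level. Its cochlear HC arrays read 12.30, 11.89 and 12.29 and its cochlear ENHC arrays 11.12, 10.49 and 10.58. The vestibular HC arrays read 10.14, 9.53 and 10.46 and the vestibular ENHC arrays 13.46, 12.65 and 12.70. It was the only gene of the tectorial, otolithic and cupular matrix list, of 15 measured, with opposite called directions, and its interaction was 4.33 (SE 0.38, 20.1-fold, adjusted p = 4.505e-07). Matn4 was also high in NECs, at a mean of 12.55 in the cochlea and 12.63 in the vestibular organs, and the part of such cells in the result was not tested.

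Arhgef3, which encodes a guanine nucleotide exchange factor, read 8.28, 7.99 and 7.90 in cochlear HCs against 5.96, 5.30 and 5.83 in cochlear ENHCs, and 5.50, 5.90 and 4.92 in vestibular HCs against 6.88, 6.80 and 6.52 in vestibular ENHCs. Its interaction was 3.65 (SE 0.34, adjusted p = 1.21e-06), with detection on 2 of 3 arrays in both low groups. Arhgap26, a GTPase-activating protein, had an interaction of 3.52 (SE 0.40), being 3.28-fold higher in HCs in the cochlea and 3.51-fold lower in HCs in the vestibular organs. Of its other probes, neither measured in all 4 groups, 1 gave 2.57 and the other 0.03. Rhobtb1 went the other way: it was 3.28-fold lower in HCs in the cochlea and 2.78-fold higher in HCs in the vestibular organs (interaction -3.19, SE 0.52, adjusted p = 3.73e-04). Twf1, which encodes the actin monomer-binding protein twinfilin 1, shared that orientation with an interaction of -2.92 (SE 0.42, adjusted p = 9.44e-05).

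Etv1, an ETS transcription factor induced by FGF signalling, read 8.65, 9.13 and 8.42 in cochlear HCs and 6.86, 6.65 and 6.85 in cochlear ENHCs, whereas vestibular HCs read 7.07, 7.76 and 7.99 and vestibular ENHCs 8.72, 9.15 and 8.47. The interaction of Etv1 was 3.12 (SE 0.34, 8.70-fold, adjusted p = 6.78e-06), and 2 further probes that were not measured in all 4 groups gave 1.01 and 1.05, which did not pass. Gadd45a, a stress-inducible growth arrest gene, was 2.34-fold higher in HCs in the cochlea and 2.51-fold lower in the vestibular organs. For Egr3, an immediate early zinc finger gene, the corresponding values were 2.28-fold higher and 2.23-fold lower, and for Ddit3, a transcription factor of the unfolded protein response, 1.81-fold higher and 1.63-fold lower. In the vestibular organs the Egr3 arrays came close, since the HC arrays read 7.89, 8.43 and 9.498 and the ENHC arrays 9.507, 9.88 and 9.91. The list of immediate early, heat shock and dissociation genes as a whole did not lean, with a median interaction of 0.0626. Of its 36 measured members 3 were called towards cochlear HCs and 2 towards vestibular HCs (13.9%, against 10.8% of all genes tested). Fos, a member of that list, had an interaction of -0.51 (SE 0.55, adjusted p = 0.697).

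The remaining genes of largest interaction in the cochlear HC orientation were Endod1 (interaction 3.67, SE 0.60, and 2.88 without the second vestibular HC array), Btbd17 (3.45, SE 0.43), Gse1 (2.41, SE 0.23), Fam172a (2.38, SE 0.25) and Ifitm2, an interferon-induced membrane protein (2.35, SE 0.33). Btbd17 arrived at the pattern through the epithelium, since HCs of the 2 organs both read between 7.60 and 8.68 while ENHCs read 5.41 to 5.94 in the cochlea and 8.45 to 9.39 in the vestibular organs, where the 2 cell types overlapped. Fam172a and Gse1 showed it through the HCs, which were 10.1-fold and 5.48-fold higher in the cochlea than in the vestibular organs. Of these, Gse1 and Fam172a had a second measured probe, whose interaction had the same sign but did not pass the test (0.69, adjusted p = 0.418, and 0.45, adjusted p = 0.492), and for Fam172a that probe was lower in HCs in the cochlea by a difference of -0.49. Atp1b2, the beta 2 subunit of the sodium and potassium pump, was 2.01-fold higher in HCs in the cochlea and 2.15-fold lower in the vestibular organs.

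In the opposite orientation Rai2, a retinoic acid-induced gene, led. Cochlear HCs read 6.14, 5.64 and 6.40 and cochlear ENHCs 7.28, 7.78 and 7.26, whereas vestibular HCs read 7.90, 8.81 and 8.03 and vestibular ENHCs 5.31, 5.70 and 5.41. The 2 cell types were separate in both organs, HCs being 2.61-fold lower in the cochlea and 6.83-fold higher in the vestibular organs. Its interaction was -4.16 (SE 0.36, 17.8-fold, adjusted p = 4.41e-07). Rai2 too was high in NECs, at means of 8.47 and 9.0 in the cochlea and the vestibular organs.

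Gad1, which encodes the glutamate decarboxylase that makes the inhibitory transmitter GABA, showed vestibular HCs as the high group. The vestibular HC arrays read 8.49, 8.62 and 8.67, above the vestibular ENHC arrays at 6.71, 5.52 and 6.79. In the cochlea the order was turned, with 6.33, 5.32 and 5.70 in HCs (detected on 2 of 3 arrays) and 7.81, 6.49 and 8.0 in ENHCs. The interaction of Gad1 was -3.91 (SE 0.52, 15-fold, adjusted p = 3.96e-05), and a second probe gave -4.13. Dlgap1, a scaffold of the postsynaptic density in neurons, had the same orientation (-3.02, SE 0.44, adjusted p = 1.21e-04), as did Svopl, a transporter related to synaptic vesicle protein 2 (-2.78, SE 0.33).

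Sox21, a SoxB2 transcription factor of the sensory epithelium, was higher in ENHCs in the cochlea and higher in HCs in the vestibular organs. It read 8.86, 8.56 and 8.54 in cochlear HCs, 10.17, 9.61 and 9.94 in cochlear ENHCs, 9.87, 9.53 and 9.63 in vestibular HCs, and 8.58, 7.68 and 8.21 in vestibular ENHCs. Its interaction was -2.77 (SE 0.32, 6.84-fold, adjusted p = 9.11e-06), and 2 further probes gave -3.09 and -2.67. Sox2, a SoxB1 factor needed to form the prosensory domain, leaned the same way without a change of direction: HCs exceeded ENHCs 1.57-fold in the cochlea and 4.86-fold in the vestibular organs (interaction -1.63, SE 0.34, adjusted p = 0.0029). Another Sox2 probe, not measured in all 4 groups, gave -0.33 and did not pass.

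Lpgat1, a lysophospholipid acyltransferase, read 7.02, 6.84 and 6.72 in cochlear HCs, 8.65, 8.53 and 8.59 in cochlear ENHCs, 10.06, 9.70 and 9.66 in vestibular HCs, and 8.81, 8.34 and 8.50 in vestibular ENHCs. The ENHCs of the 2 organs thus overlapped, and the HCs lay on either side of them (interaction -2.98, SE 0.25, 7.91-fold, adjusted p = 3.79e-07). Cds1, which makes CDP-diacylglycerol, was 3.34-fold lower in HCs in the cochlea and 2.03-fold higher in the vestibular organs. Dennd4a, an exchange factor for Rab GTPases, reached its interaction of -3.70 (SE 0.46) mainly in ENHCs, which were 8.08-fold higher in the cochlea, and 2 further probes gave -2.58 and -2.06. Pcolce2, an enhancer of procollagen processing, was 31.4-fold higher in cochlear than in vestibular ENHCs, with detection on 2 of 3 of the latter, and had an interaction of -3.10 (SE 0.59). S100a6, an EF-hand calcium-binding protein, completed the 12 of largest interaction (-2.74, SE 0.35).

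Further genes of opposite direction were chosen after their values were seen, for what they encode. Spock1, a secreted proteoglycan, read 8.44, 8.66 and 8.76 in cochlear HCs, 10.09, 9.99 and 10.24 in cochlear ENHCs, 8.76, 8.89 and 9.15 in vestibular HCs, and 7.70, 7.86 and 8.20 in vestibular ENHCs, with a 4.55-fold organ difference in ENHCs and none called in HCs (interaction -2.50, SE 0.24, adjusted p = 1.64e-06). Another Spock1 probe, not measured in all 4 groups, gave -0.76 and did not pass (adjusted p = 0.118). Cyp26b1, which degrades retinoic acid, was 2.24 log2 units higher in cochlear than in vestibular ENHCs and had an interaction of -2.50 (SE 0.43, adjusted p = 5.52e-04). Its vestibular difference of 0.80 was close to the limit of the test (adjusted p = 0.0477), with detection on 2 of 3 vestibular ENHC arrays. Ebf3, a transcription factor of neuronal differentiation, had an interaction of -2.67 (SE 0.42). The growth factor gene Tgfb2 had an interaction of -1.19 (SE 0.25, adjusted p = 0.00336).

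**Figure D2:**
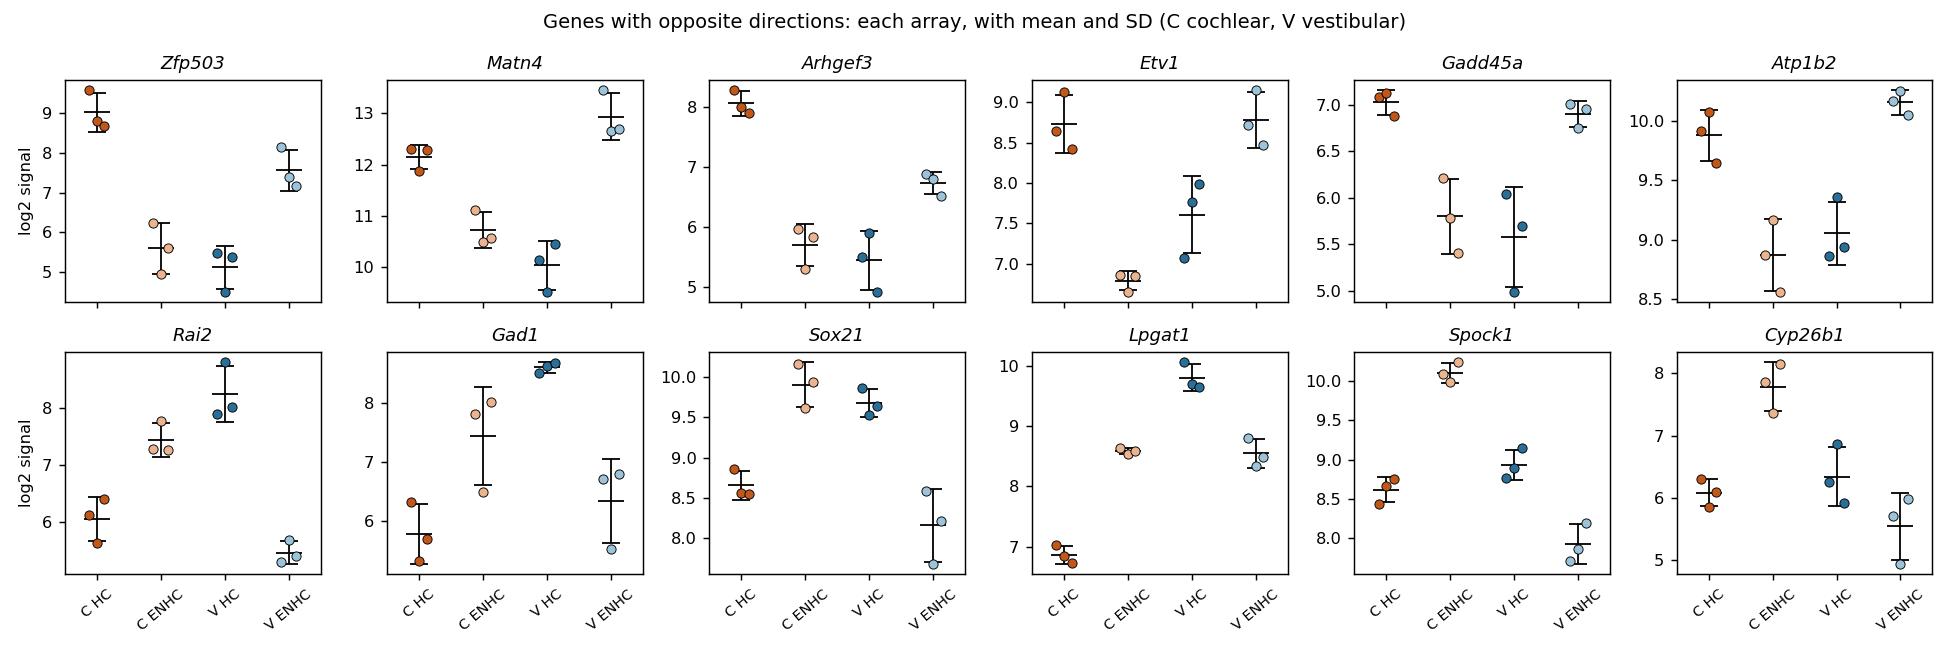
Each panel gives the log2 signal (vertical axis) of 1 gene in cochlear HCs, cochlear ENHCs, vestibular HCs and vestibular ENHCs (horizontal axis), with a point for each of the 3 arrays and bars for the mean and SD. In the upper row HCs are the higher cell type in the cochlea and the lower in the vestibular organs, from Zfp503 with an interaction of 5.88 to Atp1b2 with 2.11, and in the lower row the order is turned, from Rai2 with -4.16 to Cyp26b1 with -2.50.

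Calcium handling genes were called in both directions. Of 11 measured genes among calcium buffers, pumps and channels, 3 were called towards cochlear HCs and 1 towards vestibular HCs. Together these are 36.4% of the list, against 10.8% of all genes tested. Atp2a3, a calcium pump of the endoplasmic reticulum, read 11.87, 10.55 and 11.12 in cochlear HCs and 11.22, 10.43 and 10.51 in vestibular HCs, which overlapped. Its ENHC arrays were far apart, at 6.63, 4.53 and 5.75 in the cochlea (detected on 2 of 3) and 9.80, 9.63 and 9.09 in the vestibular organs, so that HCs exceeded ENHCs 46.7-fold in the cochlea and 2.32-fold in the vestibular organs (interaction 4.33, SE 0.61, adjusted p = 7.196e-05). Slc8a1, a sodium and calcium exchanger, repeated this form with differences of 15-fold and 3.72-fold (interaction 2.02, SE 0.38). Its 2 other probes, not measured in all 4 groups, gave 0.46 and 0.78 and did not pass.

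Atp2b1, a calcium pump of the plasma membrane, was 2.26-fold higher in HCs in the cochlea (10.06, 10.28 and 10.07 against 9.02, 8.81 and 9.03), and in the vestibular organs its difference was -0.26 with overlapping arrays. Kcnj2, which encodes the inward rectifier potassium channel Kir2.1, leaned the other way. It read 9.55, 9.65 and 9.41 in vestibular HCs and 7.02, 6.05 and 7.20 in cochlear HCs, while ENHCs read 6.23, 6.18 and 6.10 in the vestibular organs and 6.25, 5.37 and 5.94 in the cochlea (detected on 2 of 3). The cochlear arrays overlapped and the vestibular arrays did not. HCs were 10.3-fold above ENHCs in the vestibular organs and 1.87-fold in the cochlea, an interaction of -2.46 (SE 0.40, adjusted p = 3.42e-04).

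Cacna1d and Cacnb2, subunits of calcium channels, were called towards cochlear HCs, and their other probes were not called. Cacna1d, the pore-forming subunit of the channel that drives transmitter release in HCs, was 6.08-fold higher in HCs in the cochlea and 2.27-fold in the vestibular organs (interaction 1.42, SE 0.35, adjusted p = 0.0115). Its HC arrays overlapped between organs, at 9.07, 8.99 and 9.33 in the cochlea and 8.47, 9.09 and 8.60 in the vestibular organs, and the ENHC arrays did not, at 6.47, 6.43 and 6.69 against 7.48, 7.67 and 7.46. A further Cacna1d probe, not measured in all 4 groups, gave 0.54 (adjusted p = 0.421). Cacnb2, its beta 2 subunit, was called in the same direction (1.38, SE 0.28), though a second probe gave 0.48 and did not pass (adjusted p = 0.723), and a probe not measured in all 4 groups gave -0.02 (adjusted p = 0.99), with HC to ENHC differences of 1.49 in the cochlea and 1.51 in the vestibular organs. With Gad1 and Sv2b towards vestibular HCs, the synapse and neurosecretion list held 2 calls in each direction among 14 measured genes. That is 28.6% of this list, against 10.8% of all genes tested. Sv2b, a synaptic vesicle protein (-2.34, SE 0.67, adjusted p = 0.0282), was detected on only 2 of 3 arrays in 3 of the groups and did not pass when the 12 HC and ENHC arrays were fitted alone (adjusted p = 0.0729).

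The other genes of largest interaction towards cochlear HCs were mostly HC-enriched genes of the cochlea. Pcp4l1, a relative of the calmodulin-binding protein PEP-19, read 11.27, 11.46 and 11.31 in cochlear HCs and at most 8.29 on every other HC or ENHC array (interaction 3.41, SE 0.48). Kif21b, a kinesin motor, read 9.61, 10.07 and 10.31 in cochlear HCs and 5.99, 6.97 and 5.66 in vestibular HCs, with detection on 2 of 3 arrays in both ENHC groups (interaction 3.40, SE 0.51). Piezo2, a mechanically gated cation channel, read 9.97, 10.39 and 10.30 in cochlear HCs and 8.18, 7.59 and 8.07 in vestibular HCs, and was 10.3-fold above ENHCs in the cochlea, with a vestibular difference of 0.37 that did not pass (adjusted p = 0.289). Another measured probe gave an interaction of 3.68 beside 2.99 for the first.

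Efna5, an ephrin ligand (interaction 3.17, SE 0.42), Homer2, a scaffold that links receptors to calcium stores (2.70, SE 0.38), and Pdzrn3, a ubiquitin ligase (2.60, SE 0.35), were called in HCs against ENHCs in the cochlea only. A second measured Efna5 probe gave an interaction of 3.79. Its difference was 3.11 in the cochlea and -0.69 in the vestibular organs, where it passed (adjusted p = 0.0207), so that probe went opposite ways. A second measured Pdzrn3 probe gave 2.68, with a vestibular difference that did not pass (adjusted p = 0.109). Fam43a (2.81, SE 0.70, and 3.40 without the third vestibular ENHC array), detected on 2 of 3 cochlear ENHC arrays, had the widest error of the 10 other genes of largest interaction towards cochlear HCs. Kank4, an adaptor of focal adhesions, reached its interaction of 2.72 (SE 0.46) in the vestibular organs alone, where it was 5.76-fold lower in HCs and detected on 2 of 3 HC arrays. Pdgfra, a growth factor receptor of mesenchyme, was 7.60-fold higher in HCs in the cochlea (interaction 2.66, SE 0.51) and was higher still in NECs, at means of 10.94 and 11.45. Of the 10 mesenchymal markers 7 were undetected in cochlear HCs, among them Col1a2, Col3a1 and Prrx1. Beside Pdgfra, Dcn and Lum were detected on all 3 cochlear HC arrays and on none of the vestibular HC arrays. The summed signal of the 10 markers ran from 925 to 1040 in cochlear HCs and from 2890 to 3370 in cochlear ENHCs. In the vestibular organs it ran from 536 to 622 in HCs and from 1270 to 1960 in ENHCs. The part of mesenchymal RNA in the Pdgfra result was not tested. Rbfox2, a splicing regulator, was called towards cochlear HCs (1.65, SE 0.32). Another Rbfox2 probe, not measured in all 4 groups, gave 1.19 and did not pass. It was the only call among 15 measured splicing regulators (6.67%, against 10.8% of all genes tested), and Esrp1 was not called (-0.62, adjusted p = 0.214).

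Genes of the axoneme, the microtubule core of a motile cilium, leaned towards vestibular HCs as a group. Of 138 genes on this list 99 were tested and 36 were measured in all 4 groups. The interaction of all 36 was below 0, against 53.6% of all measured genes, and 11 of them (30.6%) passed the test, all towards vestibular HCs, against the 6.31% given above for all genes tested. Their median interaction was -0.53 beside the -0.0424 of all measured genes. The median HC to ENHC difference of the list was 1.36 in the cochlea and 1.90 in the vestibular organs. Of the 36, 23 were called as higher in HCs in the cochlea and 1 as lower, and 29 were called as higher in HCs in the vestibular organs. The organ difference in HCs was called as higher in vestibular HCs for 15 of the 36 and as higher in cochlear HCs for none, and in ENHCs it was called as higher in the cochlea for 2 and in the vestibular organs for none. At an unadjusted p under 0.05 the interaction counted 14 genes towards vestibular HCs and 0 towards cochlear HCs by limma. With median scaling in place of quantile normalization all 36 stayed below 0, and 6 were called.

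Ttc25, a docking factor for outer dynein arms, read 10.39, 10.18 and 9.80 in vestibular HCs and 8.90, 8.70 and 8.96 in cochlear HCs, while ENHCs read 5.70, 5.87 and 5.82 in the vestibular organs and 6.52, 6.46 and 6.18 in the cochlea. HCs thus exceeded ENHCs 20.1-fold in the vestibular organs and 5.52-fold in the cochlea (interaction -1.86, SE 0.27, adjusted p = 9.26e-05). Lrriq1 read 9.56, 10.16 and 9.54 in vestibular HCs against 7.90, 7.63 and 7.84 in cochlear HCs, with ENHC arrays between 5.90 and 6.62 in both organs (interaction -2.17, SE 0.29, adjusted p = 5.09e-05). Dnaaf3, a factor that assembles axonemal dyneins in the cytoplasm, had an interaction of -1.78 (SE 0.30). Tekt1, a filament protein of ciliary microtubules, read 10.10, 10.19 and 9.73 in vestibular HCs and 8.96, 8.44 and 8.65 in cochlear HCs (interaction -1.47, SE 0.27, adjusted p = 0.001003). Its second probe gave -0.97, which did not pass (adjusted p = 0.119).

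Dnah11, a heavy chain of the outer dynein arm, was the member of this list with opposite directions. It read 7.24, 6.75 and 7.11 in cochlear HCs and 8.06, 8.25 and 8.10 in cochlear ENHCs, against 8.94, 9.44 and 9.09 in vestibular HCs and 8.30, 8.51 and 8.85 in vestibular ENHCs. Cochlear HCs were the low group and vestibular HCs the high group, with no overlap in either organ (interaction -1.70, SE 0.27, adjusted p = 2.97e-04). Another probe, not measured in all 4 groups, had an interaction of -1.36 that did not pass (adjusted p = 0.132) and was higher in HCs in the cochlea by 0.67.

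**Figure D3:**
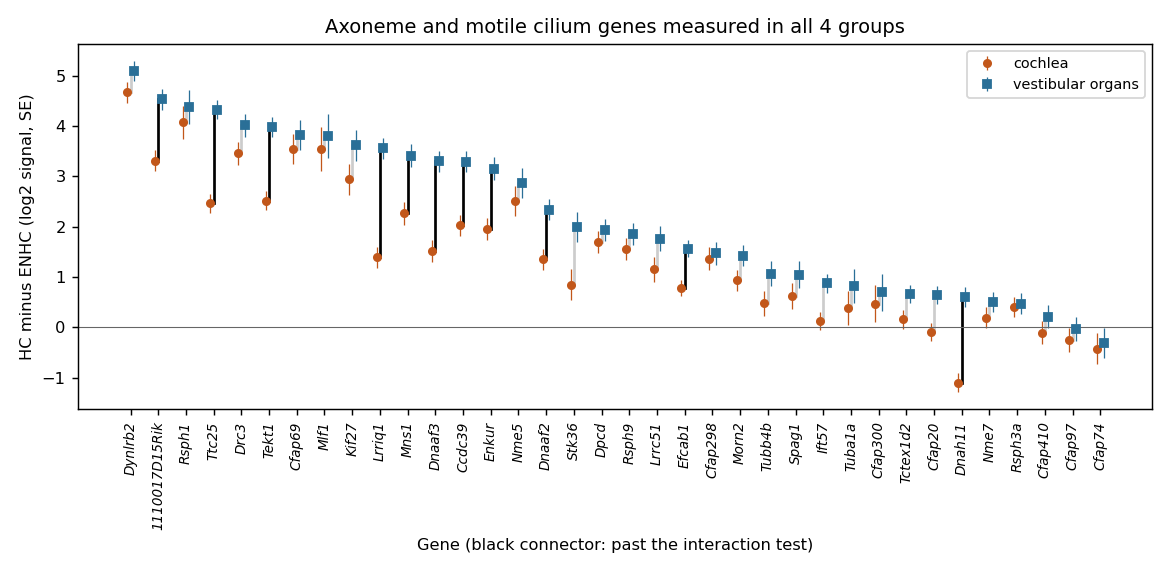
The 36 axoneme and motile cilium genes measured in all 4 groups (horizontal axis) are plotted by their HC minus ENHC difference (vertical axis, log2 signal, bars are SE) in the cochlea (circles) and the vestibular organs (squares). The vestibular value lies above the cochlear value in all 36, and black connectors mark the 11 past the interaction test.

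RFX factors, transcription factors that drive ciliary genes in many animals, bind a sequence called the X-box. The letters GTTGCCAT, taken from the X-box core, were searched on both strands of the RefSeq promoter windows (250 bases before to 50 after the annotated start, GRCm38.p6). A gene counted as a match where any of its windows held the letters. Of the 11 called axoneme genes 9 had a window and 3 of these held the letters, against 3 of 21 among the axoneme genes that were not called. Over all genes tested the share was 1.4% of 9651 genes with a window. Counted by window, it was 1.35% of all 32851 windows. A match is a description of the sequence and not a binding site. The 3 windows with a match among called genes, Lrriq1, Tekt1 and Dnaaf2 (the last named for its match; a dynein assembly factor with an interaction of -0.99, SE 0.30), are printed because they show where the letters lie. Capitals mark the letters searched, which read ATGGCAAC where they lie on the other strand, and they lie at positions -19, -15 and -11 relative to the annotated start.
Lrriq1 (chr10:103236273-103236572, minus strand): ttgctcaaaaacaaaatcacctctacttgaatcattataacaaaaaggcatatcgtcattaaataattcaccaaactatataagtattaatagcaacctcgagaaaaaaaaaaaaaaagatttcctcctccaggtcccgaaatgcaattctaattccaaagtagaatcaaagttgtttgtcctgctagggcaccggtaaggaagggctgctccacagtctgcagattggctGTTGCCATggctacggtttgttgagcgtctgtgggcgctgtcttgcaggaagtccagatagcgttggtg
Tekt1 (chr11:72361833-72362132, minus strand): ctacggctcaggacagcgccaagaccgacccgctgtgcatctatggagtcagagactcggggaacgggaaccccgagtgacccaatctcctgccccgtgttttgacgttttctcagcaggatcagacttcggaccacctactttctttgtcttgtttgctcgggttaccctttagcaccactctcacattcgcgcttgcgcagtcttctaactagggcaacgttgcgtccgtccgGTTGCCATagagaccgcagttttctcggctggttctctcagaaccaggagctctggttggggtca
Dnaaf2 (chr12:69198380-69198679, minus strand): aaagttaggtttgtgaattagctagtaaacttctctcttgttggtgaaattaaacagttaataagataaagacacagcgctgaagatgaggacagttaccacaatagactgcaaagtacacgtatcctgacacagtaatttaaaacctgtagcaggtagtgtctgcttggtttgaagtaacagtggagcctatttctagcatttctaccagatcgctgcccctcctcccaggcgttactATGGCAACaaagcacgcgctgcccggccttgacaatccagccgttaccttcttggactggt

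Genes that build and maintain cilia of any kind leaned the same way, less uniformly. Among 50 measured genes of intraflagellar transport, the BBSome and the transition zone, 39 had an interaction below 0, and the median was -0.52. Of the 50, 9 (18%) were called, all towards vestibular HCs, against 10.8% of all genes tested in either direction. Ttc30b, a subunit of the transport particle IFT-B, read 8.70, 9.14 and 8.63 in vestibular HCs and 6.28, 7.18 and 6.93 in vestibular ENHCs, while its cochlear arrays overlapped at 7.63, 7.55 and 7.84 in HCs and 7.29, 7.97 and 8.10 in ENHCs (interaction -2.14, SE 0.42). Bbs5, a subunit of the BBSome, was 6.41-fold higher in HCs in the vestibular organs and 2.08-fold in the cochlea, with detection on 2 of 3 vestibular ENHC arrays. Ift88, a core subunit of the IFT-B particle, had an interaction of -1.24 (SE 0.34, adjusted p = 0.0227) and a second probe of -1.35, and it did not pass with median scaling (adjusted p = 0.0502). Cep41, a protein of the ciliary base, was 3.22-fold lower in HCs in the cochlea, where it was detected on 2 of 3 HC arrays, with a vestibular difference of 0.51 that did not pass (interaction -2.20, SE 0.38). Mks1, of the transition zone, was called at -1.44 (SE 0.42, adjusted p = 0.0301), and not when the 12 HC and ENHC arrays were fitted alone (adjusted p = 0.0716).

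Of 42 tested genes of the hair bundle and of mechanotransduction 14 were measured in all 4 groups, and 2 were called (14.3%, against 10.8% of all genes tested), both towards vestibular HCs. Pls1, which encodes the actin cross-linker plastin 1 of stereocilia, had the larger interaction. It read 11.08, 11.06 and 10.47 in vestibular HCs and 8.33, 8.04 and 8.57 in vestibular ENHCs, and in the cochlea its HC arrays (10.09, 9.62 and 9.87) overlapped its ENHC arrays (10.01, 9.34 and 10.09). The interaction was -2.52 (SE 0.32, adjusted p = 2.95e-05), with the organ difference called both in HCs, 2.02-fold higher in the vestibular organs, and in ENHCs, 2.83-fold higher in the cochlea. Pls3, another plastin, was higher in ENHCs in both organs, 8.14-fold in the cochlea and 3.69-fold in the vestibular organs.

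Genes of planar cell polarity, which align hair bundles, gave 3 calls among 18 measured genes (16.7%), all towards vestibular HCs, against 10.8% of all genes tested in either direction. Prickle2, a core polarity protein, read 9.13, 9.39 and 8.57 in vestibular HCs and 7.49, 6.13 and 6.90 in vestibular ENHCs, and its cochlear arrays overlapped (interaction -2.39, SE 0.39). Another Prickle2 probe, not measured in all 4 groups, gave -0.67 and did not pass (adjusted p = 0.369). Wnt5a, a secreted ligand of this pathway, was 9.84-fold lower in HCs in the cochlea, with 6.36, 6.61 and 6.46 in HCs against 9.61, 9.998 and 9.72 in ENHCs. In the vestibular organs its HC arrays read 7.82, 8.47 and 8.05 and its ENHC arrays 8.17, 8.99 and 8.80, a difference of -0.54 (adjusted p = 0.0576). The interaction of Wnt5a was -2.76 (SE 0.30, adjusted p = 6.20e-06). Celsr1, a cadherin of the core polarity complex, was called at -1.23 (SE 0.32, adjusted p = 0.0151). The core polarity genes Vangl2 (0.22, adjusted p = 0.859) and Fzd3 (-0.03, adjusted p = 0.975) were not called, and the list median was 0.23.

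Matrix genes gave the highest share of calls of any list with at least 10 measured members. Of 15 measured genes of the tectorial, otolithic and cupular matrices 7 were called (46.7%, against 10.8% of all genes tested). Of the 7, 5 were called towards vestibular HCs, and the list median was -0.94. Otoa, which encodes the otoancorin that anchors acellular gels to the epithelium, was low in cochlear HCs at 5.56, 5.60 and 5.56 and read 8.12, 7.79 and 8.89 in vestibular HCs. The ENHC arrays read 10.33, 10.68 and 10.25 in the cochlea and 9.63, 9.47 and 9.65 in the vestibular organs. ENHCs thus exceeded HCs 28.9-fold in the cochlea and 2.49-fold in the vestibular organs (interaction -3.53, SE 0.33, adjusted p = 1.00e-06). Another Otoa probe, not measured in all 4 groups, gave -1.63 and did not pass.

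Tectb, which encodes beta-tectorin, read 11.46, 11.30 and 11.51 in cochlear ENHCs and 9.72, 9.53 and 9.72 in cochlear HCs, and its vestibular arrays overlapped at 10.44, 10.16 and 10.97 in HCs and 9.90, 9.81 and 10.62 in ENHCs (interaction -2.18, SE 0.31). Tecta, which encodes alpha-tectorin, was not called (interaction -0.24, SE 0.35, adjusted p = 0.799), with ENHCs 3.59-fold higher in the cochlea and 3.04-fold higher in the vestibular organs. Col11a1, a fibrillar collagen, was called at -2.0 (SE 0.46), and of its 2 further measured probes 1 gave -2.02 and the other -0.12 (adjusted p = 0.921). A Col11a1 probe not measured in all 4 groups gave -0.71 and did not pass. Zpld1, a zona pellucida domain protein of the cupula, was chosen after its values were seen: it read 10.94 to 12.17 on all 6 vestibular arrays of HCs and ENHCs, whereas the cochlea read 7.21, 7.78 and 7.69 in HCs and 5.20, 6.39 and 6.30 in ENHCs (detected on 2 of 3), and its interaction was 1.80 (SE 0.53, adjusted p = 0.0335).

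Lamb1, which encodes the laminin beta 1 chain of basement membranes, showed the largest interaction towards vestibular HCs outside the opposite genes. It read 5.85, 4.88 and 5.37 in cochlear HCs (detected on 2 of 3) and 7.44, 8.37 and 8.69 in vestibular HCs, against 11.07, 10.82 and 10.77 in cochlear ENHCs and 9.54, 9.69 and 9.63 in vestibular ENHCs. All 4 groups were separate, and the HC deficit was 46.0-fold in the cochlea and 2.74-fold in the vestibular organs (interaction -4.07, SE 0.38, adjusted p = 1.00e-06). Other laminin chains went the other way: Lamb2 had an interaction of 1.94 (SE 0.52, adjusted p = 0.0199), being 7.23-fold lower in HCs in the vestibular organs with a cochlear difference of -0.91 that did not pass, and Lama5 was 3.61-fold lower in the vestibular organs and 1.65-fold in the cochlea (1.12, SE 0.29, adjusted p = 0.0162). Lamb2 did not pass when the 12 HC and ENHC arrays were fitted alone (adjusted p = 0.0566), nor Lama5 with median scaling (adjusted p = 0.0671). Among 32 measured matrix and basement membrane genes, 6 were called in each direction and the median interaction was -0.14. The calls make up 37.5% of this list, against 10.8% of all genes tested. Col4a1, a basement membrane collagen, was 10.7-fold and 6.49-fold lower in HCs of the cochlea and the vestibular organs (interaction -0.72, adjusted p = 0.251).

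Several further ENHC genes were, as Otoa and Lamb1, lower in cochlear than in vestibular HCs. Wfdc2, a secreted protease inhibitor-like protein of epithelia, read 6.48, 4.68 and 5.82 in cochlear HCs (detected on 2 of 3) and 8.95, 9.09 and 9.58 in vestibular HCs, while the ENHCs of the 2 organs overlapped between 10.65 and 10.89. Ecrg4, a secreted hormone-like protein (-3.38, SE 0.40), Frzb, a secreted inhibitor of Wnt ligands (-2.94, SE 0.35), and Cdh11, a cadherin (-3.26, SE 0.38, with a second probe of -1.90 that did not pass at adjusted p = 0.113), were likewise 5.35-fold, 6.42-fold and 6.89-fold higher in vestibular than in cochlear HCs. Cdh11 was detected on 2 of 3 cochlear HC arrays, and the vestibular arrays of Frzb and Cdh11 overlapped between the 2 cell types. A Cdh11 probe not measured in all 4 groups gave -2.07 and did not pass. Epithelial RNA in the sorted HCs was examined through the 8 epithelial markers. Their summed signal ran from 5960 to 7260 in cochlear HCs and from 6330 to 8160 in vestibular HCs, against 10200 to 14000 and 13200 to 16300 in ENHCs. Within this sum, Krt8 averaged 7.11 in cochlear and 8.62 in vestibular HCs, Krt18 8.22 and 9.47, and Cldn3 5.95 and 7.46. Epcam (10.18 and 10.69), Cldn6 (8.51 and 8.91), Sox2 (9.59 and 10.55) and Sox10 (6.38 and 6.90) were also higher in vestibular HCs. Cdh1 alone was lower there, at 11.87 and 10.87, and it has the highest mean of these markers in HCs of both organs. It was also high in NECs, at 11.68 in the cochlea and 11.15 in the vestibular organs. Mesenchymal markers differed in both directions: the collagen genes Col1a2 and Col3a1 were undetected on all cochlear HC arrays and averaged 7.65 and 6.33 in vestibular HCs, whereas the proteoglycan genes Dcn and Lum were undetected on all vestibular HC arrays and averaged 5.97 and 7.36 in cochlear HCs. The part of such RNA in these results was not tested.

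In Itgb6 and Car9 the organ difference was called in ENHCs and not in HCs. Itgb6, an integrin subunit of epithelia, read 9.78, 9.44 and 10.05 in cochlear ENHCs and at most 6.99 on every other HC or ENHC array (interaction -3.14, SE 0.41, adjusted p = 3.17e-05), with detection on 2 of 3 vestibular ENHC arrays. Car9, a carbonic anhydrase of the cell surface, followed it with 9.92, 10.06 and 9.29 in cochlear ENHCs and 6.95, 7.31 and 6.31 in vestibular ENHCs and detection on 2 of 3 cochlear HC arrays (-3.29, SE 0.40). Prss35, a serine protease-like protein, was called at -3.66 (SE 0.63), with an organ difference called in both cell types. Fxyd6, a regulator of the sodium and potassium pump, was 37.5-fold lower in HCs in the cochlea and 8.32-fold lower in the vestibular organs, and was detected on 2 of 3 cochlear HC arrays. Car13, a cytosolic carbonic anhydrase, went the other way: it was 4.92-fold lower in HCs in the vestibular organs, with detection on 2 of 3 HC arrays, and its cochlear difference of -0.31 did not pass (interaction 1.99, SE 0.47).

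**Figure D4:**
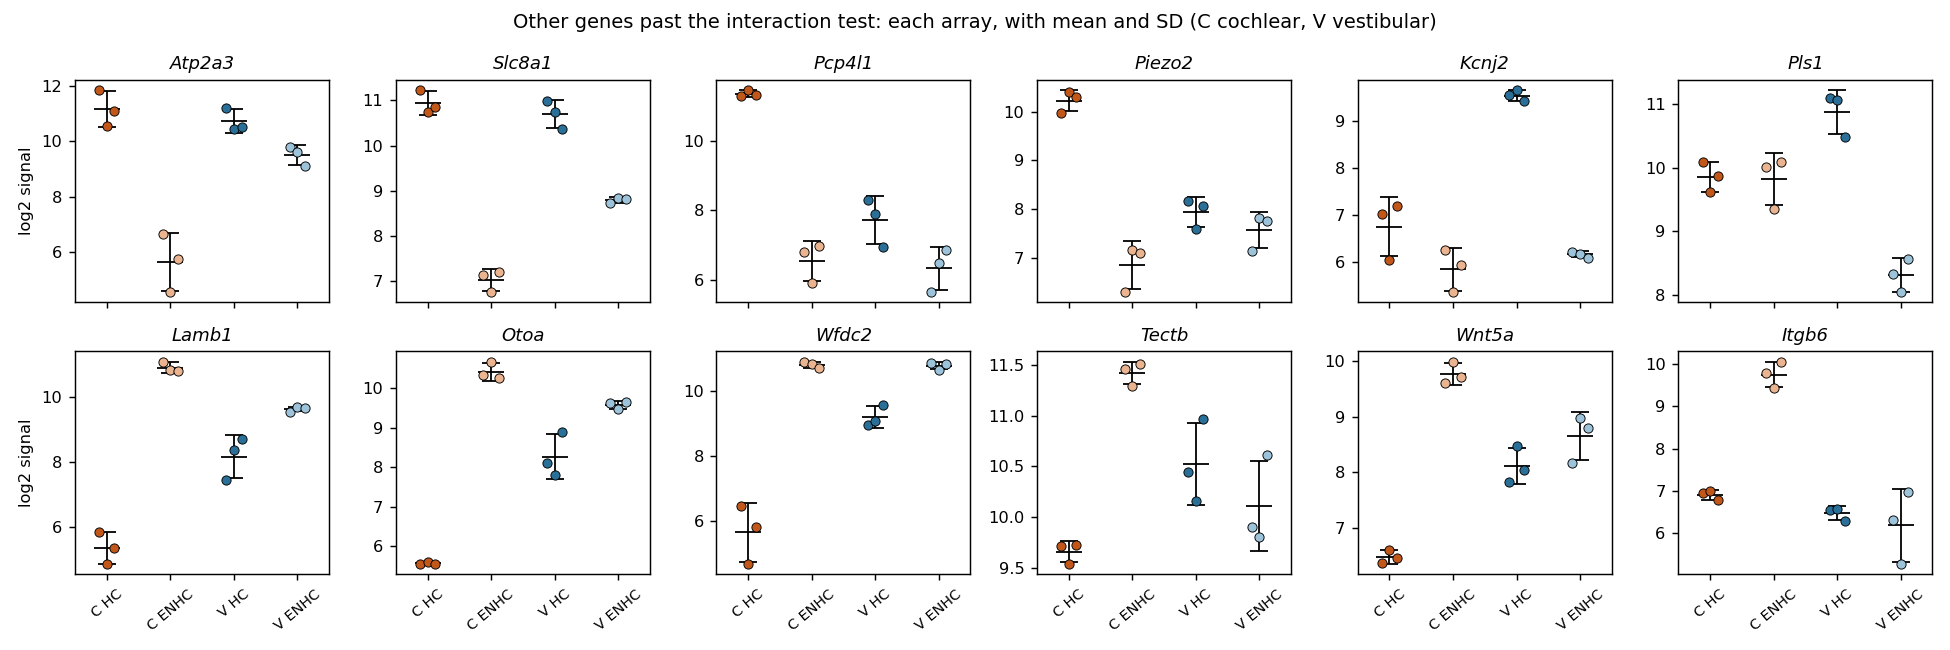
Panels as for the genes of opposite direction: log2 signal (vertical axis) on each of the 3 arrays of each group (horizontal axis), with mean and SD. Atp2a3, Slc8a1, Pcp4l1 and Piezo2 were called towards cochlear HCs and the other 8 genes towards vestibular HCs, and Lamb1, Otoa and Wfdc2 are lowest in cochlear HCs.

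Secreted signals and their receptors were called in 14 of 64 measured genes (21.9%, against 10.8% of all genes tested), with a median of -0.21. Of these calls 4 were towards cochlear HCs and 10 towards vestibular HCs. Sfrp2, a secreted modulator of Wnt signalling, was 8.81-fold lower in HCs in the cochlea, with 7.38, 6.17 and 6.79 in HCs against 9.88, 9.83 and 10.06 in ENHCs, and had a vestibular difference of 0.23 (adjusted p = 0.583, interaction -3.37, SE 0.40). Pdgfc, a ligand of platelet-derived growth factor receptors, was 27.3-fold and 4.02-fold lower in HCs of the cochlea and the vestibular organs, with detection on 2 of 3 cochlear HC arrays. Its other probes, not measured in all 4 groups, gave -0.99, which passed, and -0.14, which did not. Chosen after their values were seen, Fgf10, a fibroblast growth factor, read 10.36, 10.35 and 10.71 in vestibular HCs and 8.29, 8.11 and 9.10 in vestibular ENHCs, while its cochlear HC arrays read 9.46, 9.67 and 9.94 and its cochlear ENHC arrays 10.25, 9.95 and 10.44, a difference of -0.52 that did not pass (interaction -2.50, SE 0.39). Igfbp2, which binds insulin-like growth factors and was chosen in the same way, read 10.20, 10.29 and 10.25 in vestibular ENHCs and at most 7.54 on the other HC and ENHC arrays (interaction 1.90, SE 0.28).

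Among 33 measured prosensory and supporting cell genes 24.2% were called, against 10.8% of all genes tested. Of these calls 2 were towards cochlear HCs and 6 towards vestibular HCs. Beside Sox21 and Sox2 these included Sulf1, a heparan sulphatase, which was 17.3-fold lower in HCs in the cochlea and 4.54-fold lower in the vestibular organs (interaction -1.93, SE 0.48). It did not pass when the 12 HC and ENHC arrays were fitted alone (adjusted p = 0.0509). A second Sulf1 probe gave -1.73 and was called, and a probe not measured in all 4 groups gave 0.25 (adjusted p = 0.831). Isl1, a LIM homeodomain factor of the otic epithelium and its neurons, had overlapping HC arrays in the 2 organs, from 9.71 to 10.27, and read 10.53, 9.94 and 10.39 in cochlear ENHCs and 8.79, 8.08 and 9.05 in vestibular ENHCs (interaction -1.61, SE 0.41, adjusted p = 0.0133). Of the 7 neuronal markers, which include Isl1, Tubb3 and Prph were undetected in all 4 groups. Elavl4, Nefl and Snap25 were detected on all HC arrays of both organs and on no ENHC array. Among the 4 groups Stmn2 was detected in cochlear ENHCs alone, at a mean of 6.64, and it averaged 8.37 in cochlear NECs. The part of neuronal RNA in the Isl1 result was not tested. The Notch pathway, through which HCs hold back their neighbours, gave 3 calls among 20 measured genes (15%, against 10.8% of all genes tested). Nrarp, a feedback inhibitor of Notch, was 2.77-fold lower in HCs in the cochlea with a vestibular difference of 0.54 that did not pass (interaction -2.01, SE 0.30), Heyl, a Notch effector, was called at -1.10 (SE 0.30), and Id1, an inhibitor of basic helix-loop-helix factors, at 1.24 (SE 0.36), the last not with median scaling (adjusted p = 0.108). Notch1 was not called (-0.95, adjusted p = 0.116), nor was the ligand gene Jag1 (-0.25, adjusted p = 0.826).

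Of 37 measured junction, claudin and keratin genes 5 were called (13.5%, against 10.8% of all genes tested). Among them were Cdh4, R-cadherin (-2.61, SE 0.60, with a second probe of -2.97), and Dsg2, a desmosomal cadherin (1.11, SE 0.29, detected on 2 of 3 arrays in both HC groups). Further Dsg2 probes, not measured in all 4 groups, gave 1.54, which passed, and 0.81 and 0.77, which did not. Epcam, which encodes the sorted antigen CD326, was not called (-0.33, adjusted p = 0.665). Of 29 measured cell cycle genes 3 were called (10.3%, against 10.8% of all genes tested). Cdkn1c, the cell cycle inhibitor p57, was 2.16-fold lower in HCs in the cochlea with a vestibular difference of 0.28 that did not pass (interaction -1.38, SE 0.25), and Cdkn1b, the inhibitor p27, was not called (0.47, adjusted p = 0.586). Cdkn1a and Prc1 were called at -1.58 (adjusted p = 0.0356) and 1.52 (adjusted p = 0.0262), and neither passed when the 12 HC and ENHC arrays were fitted alone (adjusted p = 0.0519 and 0.0743). None of the 70 measured genes of oxidative phosphorylation was called by limma, with a median of 0.10, and 5 had an unadjusted p under 0.05. Under the other settings tried, 0 or 1 of this list was called.

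**Figure D5:**
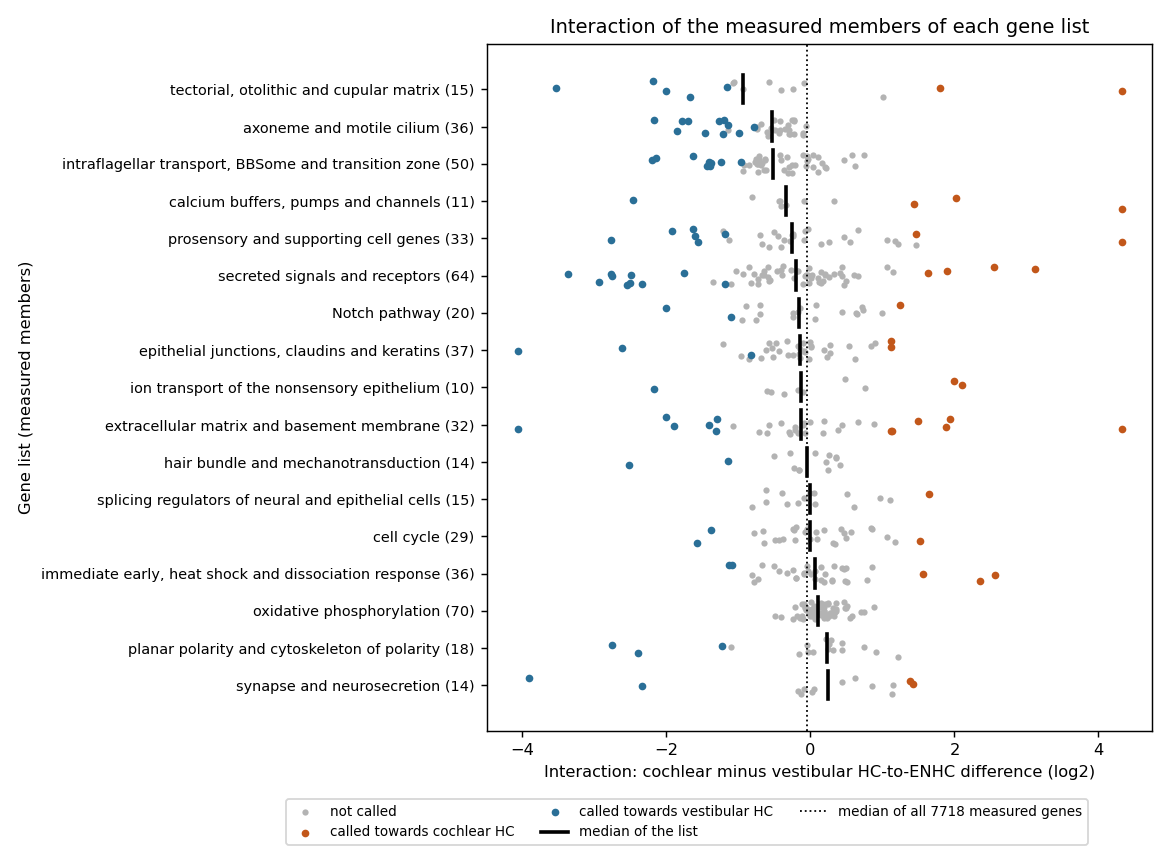
Each point is the interaction (horizontal axis, log2) of 1 measured member of a gene list (rows, number of measured members in brackets), coloured where called, with a black bar at the list median and a dotted line at the median of all 7718 measured genes, -0.0424. The axoneme list lies wholly below 0, and oxidative phosphorylation holds no coloured point among its 70 genes.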

How the data were processed

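RNA of sorted HCs, ENHCs and NECs from the cochlea and the vestibular organs (18 arrays, 3 per group) was amplified and hybridized to Illumina mouse whole-genome BeadChips. The deposited probe signal (intensity, not normalized) and its detection p-values were extracted by the authors with Bead-Studio (version: not given in the sources used here), and the authors' quantile-normalized intensity table served as an alternative. Signals were background-corrected with limma 3.58.1 (R 4.3.3; normexp from detection p-values, offset 16), quantile normalized and taken to log2. Of 45281 probes, 24352 had a detection p under 0.01 on at least 2 arrays. In the platform annotation 34885 probes had 1 gene symbol, 18 several and 10378 none. Each of 12002 genes was represented by its kept probe of highest mean. A limma model with 1 mean per group was fitted on all 18 arrays, and p-values were adjusted by Benjamini-Hochberg over all 12002 genes (two-sided, adjusted p under 0.05). The fit was tested on simulated data. The number of arrays limits the precision.

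Named genes were the 12 of largest interaction in each orientation of opposite direction, the 10 of largest interaction in each direction among the rest, up to 4 called members of each gene list, and preset defining members. The members and lists were chosen with earlier results of these data known. Alternatives covered normalization, offset, filters, moderation, array weights, probes, replicate block and leaving out each array.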

Additional observations from a re-analysis of the deposited data

Results flagged for a closer look

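The HC to ENHC difference was tested for a difference between the 2 organs, and the results past that test are listed here because the 2 organs differed by the interaction itself (limma). They comprise the 557 measured genes with an interaction and, within them, the 58 genes with opposite called directions.

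Among the latter, with HCs higher in the cochlea and lower in the vestibular organs, the interaction was 5.88 for Zfp503, 4.33 for Matn4, 3.67 for Endod1, 3.65 for Arhgef3, 3.52 for Arhgap26, 3.45 for Btbd17, 3.12 for Etv1, 2.56 for Gadd45a, 2.41 for Gse1, 2.38 for Fam172a, 2.35 for Egr3 and 2.35 for Ifitm2. With the order turned, it was -4.16 for Rai2, -3.91 for Gad1, -3.70 for Dennd4a, -3.19 for Rhobtb1, -3.10 for Pcolce2, -3.02 for Dlgap1, -2.98 for Lpgat1, -2.92 for Twf1, -2.78 for Svopl, -2.77 for Sox21, -2.76 for Cds1 and -2.74 for S100a6.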

How the results depend on the processing

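No direction reversed under any alternative for the counts, the axoneme median or the 87 named genes called, where other probes were used only if measured in all 4 groups. Those genes had 42 further probes not measured in all 4 groups, of which 23 passed and 3 had the other sign (Sulf1 0.25, Prc1 -0.14 and Cacnb2 -0.02). Of 1913 alternative values of those genes 1839 kept their call and 74 did not, 43 of them on leaving out an array. Across the other settings the measured genes called numbered between 421 (the 12 HC and ENHC arrays alone) and 842 (replicate block), beside 557. In these settings the share towards cochlear HCs lay between 33.9% and 38.8%, beside 36.1%. It was 38.9% of the probes called where all kept probes were tested one by one. On leaving out an array it ran from 32.5% to 39.3%.

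With median scaling 6 axoneme genes were called, in place of 11. With all kept probes tested one by one, 313 probes were called towards cochlear HCs, 35 had opposite directions with HCs higher in the cochlea, 4209 and 3842 differed between HCs and ENHCs in the cochlea and the vestibular organs, and 1393 differed between organs in HCs. These count probes and not genes. Leaving out each array in turn gave 434 to 573 calls, 40 to 65 genes of opposite direction, and 22 to 41 of them with HCs higher in the vestibular organs, the lowest without Vestibular ENHC replicate 2.

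Same-numbered samples of different groups did not deviate together throughout (r from -0.0136 to 0.601, over 0.1 in 15 of 18 pairs), so the numbers were not taken as pairs. As a hint from the data, the median r was 0.384 for the same number. In 32 of 36 comparisons of an array with those of another group r was highest for its own number. The median r of -0.19 for other numbers adds little, because group means were removed first and it follows largely by arithmetic. With the replicate number as a block, 842 genes were called, 324 of them towards cochlear HCs, 88 had opposite directions, 57 of these with HCs higher in the vestibular organs, and 985 differed between organs in ENHCs. All 557 calls and all 58 genes of opposite direction were among those of the block. Each group held all the replicate numbers, so the block left the interactions themselves unchanged. Their median over all genes tested was -0.0277 in both fits. Only the estimate of spread and its degrees of freedom differed. The SEs of the main fit thus include any variation shared by same-numbered arrays. What the shared numbers stand for was not tested. Genes detected on fewer than 2 of 3 arrays in any of the 4 groups were left out, so interactions of genes restricted to HCs are not covered. Some described genes still had an array near background in a low group. Zfp503 read 4.51 on 1 vestibular HC array and Pcolce2 4.70 on 1 vestibular ENHC array. For comparison, Atoh1, undetected in cochlear ENHCs, averaged 4.39 there. The size of such folds rests partly on these low values.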

Other observations

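NECs stand outside the comparison, and their signal for the 58 genes of opposite direction is given as values. For 10 of the 58 the mean of NECs in some organ exceeded all 4 HC and ENHC groups, and 7 were not detected on 2 arrays of NECs from either organ. Arrays of Etv1 averaged 9.51 in cochlear and 9.92 in vestibular NECs, and those of Ifitm2 9.32 and 9.66. Sox21 averaged 4.65 and 4.54, and Svopl 4.62 and 4.54.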
